A study of Caenorhabditis elegans with 4 samples.

Results

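The genes described here encode chromatin repressors of Caenorhabditis elegans, a nematode, that act through heterochromatin protein 1 (HP1), the NuRD deacetylase complex and the synMuv B pathway. They were the 10 rows of the authors' deposited gene table whose gene name was hda-1, hpl-1, hpl-2, mep-1, let-418, lin-13, lin-61, lin-35, efl-1 or dpl-1. All 10 were found, each in a row that held no other name, among 37812 rows, and all 10 belonged to the 10703 rows that the authors tested. The samples were 4 total RNA libraries of early embryos of the wild-type strain N2, a mixture from the 1-cell to the 350-cell stage, bleached out of adults grown for 72 h. The control group had 2 libraries, from RNAi with the vector L4440 that carries no insert, and the treated group had 2, from RNAi of sig-7, the gene of a cyclophilin of the nucleus that also has an RNA-binding domain. Nothing in the labels ties the libraries of a group to separate cultures, so the spread behind the p-values may be technical. The deposited table gives 1 pooled value per group, so neither the spread between libraries nor the depth of each library is known.

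HP1 proteins bind methylated lysine of histone H3 and help to compact and silence chromatin. NuRD-type complexes join a Mi-2 ATPase, which slides nucleosomes, to a histone deacetylase. The retinoblastoma protein acts with an E2F and DP pair in the DREAM complex to hold genes in a repressed state. In C. elegans many of these genes were found by their shared role in keeping vulval cell fates in check (synthetic multivulva, or synMuv), and synMuv B genes are also known for keeping germline genes off in somatic cells.

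Levels are given as FPKM (fragments per kilobase, scaled to the number of mapped fragments), a unit that corrects for transcript length. The words rose and fell are used of genes with q under 0.05 in the authors' deposited table, where q is the p-value adjusted over all tested genes. The standard error given with a log2 ratio is the one implied by the deposited test statistic, as the ratio divided by that statistic. Whatever replicate error entered the authors' test is part of it, but pooled values do not show how large that part is.

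The target and the make-up of the samples were as follows. sig-7 (chromosome I, 8649759 to 8651583 on ce10) stood at 39.8 FPKM under control RNAi and at 8.72 FPKM under sig-7 RNAi, which is 21.9% of the control level, with q listed as 0 in the authors' deposited table. Genes of adult yolk and cuticle and of sperm were at or near 0. In the adult list 6 of 7 genes were found and none exceeded 0.159 FPKM in either group, and in the sperm list 4 of 7 were listed at 0 in both groups and the others stayed at or below 0.158 FPKM. Of the sperm genes, peel-1, gsp-3 and spe-41 lie in loci over 100 kb, and the test of spe-41 is listed as failed. The 4 other sperm genes reached at most 0.037 FPKM, with 2 of them at 0 in both groups. Of 10 maternal RNA markers, 1 fell and 0 rose, and their summed level was 920.3 FPKM under control and 1165 FPKM under sig-7 RNAi. Of these, 3 (pos-1, pie-1 and oma-2) lie in loci over 100 kb, where a call is rare, and without them the sums were 581.3 and 684.5 FPKM. Of 9 tested early zygotic markers, 2 fell and 1 rose, with summed levels of 93.0 and 81.4 FPKM, or 78.8 and 66.2 FPKM without the 3 in such loci (tbx-37, tbx-38 and sdz-23). Of 6 oocyte and eggshell markers, 0 fell and 2 rose (202.3 and 275.0 FPKM in sum). Of 9 tested later zygotic markers of somatic fates, 5 fell and 0 rose, and that list summed to 182.3 FPKM under control and 102.2 FPKM under sig-7 RNAi. Over all tested genes 17.3% fell and 11.2% rose. Among the falls, the deposited loci of elt-1 (44.3 and 13.9 FPKM) and pha-4 cover 6.07% and 38.1% of their annotated spans. That of skn-1, the maternal marker that fell, covers 14.3%. The part of this difference in somatic markers in the values below was not tested. In whole embryos, fewer cells of a type and less RNA per cell cannot be told apart.

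The repressor genes did not move as a block. Of the 10, hda-1, mep-1, lin-13 and hpl-1 fell, efl-1 and lin-61 rose, and let-418, lin-35, dpl-1 and hpl-2 did not pass the test. The 4 falls were called under every scaling of the groups that was tried. These scalings lowered every log2 ratio or left it nearly unchanged, so they could hardly weaken a fall. The 2 rises were no longer called with both groups scaled to the same total FPKM. Over all tested genes 17.3% fell and 11.2% rose, so that 28.4% were called in either direction. The summed level of the 10 genes was 682.7 FPKM under control and 688.2 FPKM under sig-7 RNAi. Their median log2 ratio with a pseudocount of 1 FPKM was 0.085, against -0.030 over all tested genes. Sum and median both rest on hpl-2, whose level is poorly bounded. Without it the other 9 genes summed to 596.8 FPKM under control and 557.3 FPKM under sig-7 RNAi, and their median was -0.093. The levels of the genes were high, with 9 of the 10 among the 20% of tested genes with the highest mean FPKM (39.3 FPKM or more). Among those 2141 genes, 6.87% fell and 34.4% rose, with a median log2 ratio of 0.52. The falls of hda-1, mep-1 and lin-13 thus went against the direction that was more frequent at their level, and the rises of efl-1 and lin-61 went with it.

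**Figure D1:**
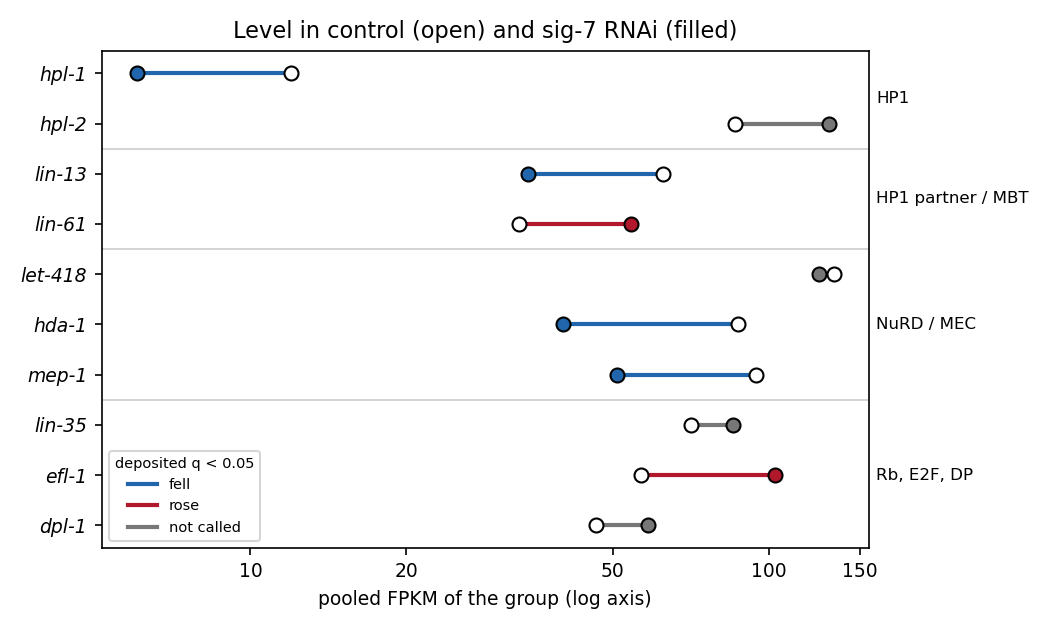
Pooled FPKM of each gene (log axis) in control RNAi (open circles) and sig-7 RNAi (filled circles), grouped by role; lines and filled circles are blue for genes that fell, red for genes that rose and grey for genes that did not pass the test, and pooled values carry no error bar. hda-1 and mep-1 lie far to the left of their control values while let-418 stays close to its own, at 133.6 and 125.2 FPKM.

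Among the genes of NuRD-type complexes, the deacetylase and the zinc-finger partner fell on the authors' scale and the ATPase did not pass the test. hda-1 encodes the class I histone deacetylase of these complexes (chromosome V, 14525393 to 14526962 on ce10). Its level was 87.3 FPKM under control and 40.1 FPKM under sig-7 RNAi, a log2 ratio of -1.12 (implied SE 0.22), with q = 4.96e-06 in the authors' deposited table. It was thus 2.18-fold lower, the largest fall among the 10 genes. mep-1 encodes a zinc-finger protein that joins LET-418 and HDA-1 in the MEC complex (chromosome IV, 11524621 to 11527496). Its level went from 94.5 to 50.97 FPKM, a log2 ratio of -0.89 (implied SE 0.20), with q = 1.31e-04 in the authors' deposited table. let-418 encodes a Mi-2 ATPase shared by NuRD and MEC (chromosome V, 5826844 to 5832677). It was at 133.6 FPKM under control and 125.2 FPKM under sig-7 RNAi, with q = 0.881 in the authors' deposited table. The 95% interval of its log2 ratio ran from -0.50 to 0.31, so a change as large as that of hda-1 or mep-1 lies outside it. With both groups scaled to the same total FPKM, let-418 was called as a fall, at -0.85, as were hda-1 (-1.88) and mep-1 (-1.65).

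The levels of these partners therefore stood in another proportion after sig-7 RNAi. On the FPKM scale the let-418 level was 1.53 times that of hda-1 in the control and 3.12 times in sig-7 RNAi. The log2 ratio of let-418 exceeded that of hda-1 by 1.03, with a standard error of 0.30 if the errors of both genes are taken as independent, and exceeded that of mep-1 by 0.80 (SE 0.29). Such a difference between genes does not depend on how the groups are scaled to each other. mep-1 stood at 1.08 times the hda-1 level in the control and 1.27 times in sig-7 RNAi, and their log2 ratios differed by 0.23 (SE 0.30), which is within 1 standard error. The differences between genes were not tested.

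Of the other NuRD and class I deacetylase genes, 8 were tested, of which 3 fell, 2 rose and 3 did not pass the test. Over all tested genes 17.3% fell and 11.2% rose. chd-3, the paralogue of let-418, was at 83.9 and 46.5 FPKM, a log2 ratio of -0.85 (implied SE 0.25), with q = 0.00346 in the authors' deposited table. It is X-linked, like hpl-1, and its deposited locus spans 114337 bp and is shared by 25 rows. lin-40, a gene of the MTA family of NuRD subunits, was at 82.3 and 52.4 FPKM, with q = 0.00803 in the authors' deposited table. egl-27, the other MTA-family gene, named after its values were seen, was at 38.9 and 26.3 FPKM (q = 0.0407 in the same table). The deposited loci of lin-40 and egl-27 cover 30.7% and 15.0% of their annotated spans, and what was counted may thus be a part of either gene. Of the rises, rba-1, which encodes an RbAp46/48-type histone-binding protein, was 1.80-fold higher, from 70.1 to 126.3 FPKM (q = 5.78e-04 in the authors' deposited table). hda-3, another class I deacetylase gene, was at 33.2 and 49.1 FPKM, with q = 0.0466 in the authors' deposited table. The median log2 ratio of these 8 genes was 0.12, and 4 lay below 0 and 4 above. With both groups at the same total FPKM, 4 of them fell and 0 rose. chd-3, lin-40, rba-1 and hda-3 lie among the 20% of tested genes with the highest mean FPKM, where 6.87% fell and 34.4% rose.

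The genes of HP1 and its partners also went different ways on the authors' scale. HPL-1 and HPL-2 are the HP1 proteins of C. elegans, and hpl-2 is the one with synMuv B activity. hpl-1 (chromosome X, 13245359 to 13246766) was the lowest expressed of the 10 genes, at 12.0 FPKM under control and 6.03 FPKM under sig-7 RNAi. Its log2 ratio was -0.99 (implied SE 0.36), with q = 0.0268 in the authors' deposited table. It is also the X-linked gene among the 10. On the X chromosome 34.4% of the 1488 tested genes fell and 3.9% rose, against 10.9% to 18.9% that fell on the other chromosomes, and the part of X linkage in the hpl-1 value was not tested. hpl-2 was at 86.0 FPKM under control and 130.9 FPKM under sig-7 RNAi, a log2 ratio of 0.61, with q = 0.999935 in the authors' deposited table. Its implied SE was 2.97, and the 95% interval ran from -5.21 to 6.42, so the data bound its change in neither direction.

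The wide error of hpl-2 went with its place in the table. Its deposited locus (chromosome III, 10732174 to 12052193) spans 1320020 bp, against an annotated gene of 3336 bp, and is shared by 285 other rows. Of these, Cuffdiff tested 155 and called 0, and 0 had an unadjusted p under 0.05, with a median implied SE of 6.29 and a lowest of 0.81. Such long loci were common. Of 2127 tested rows with a deposited locus over 100 kb, 14 were called (0.658%), against 35.3% of the other 8576. The other 9 repressor genes had loci of 1408 to 8848 bp and implied errors of 0.20 to 0.36. For 8 of these 9 the implied error was 0.204 to 0.228, close to 0.202, the lowest of all tested genes. Such errors do not show how closely the libraries of a group agreed. Still, hpl-2 cannot be counted with let-418, whose interval is narrow in the authors' test. The 100 kb limit was chosen after the values were seen.

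**Figure D2:**
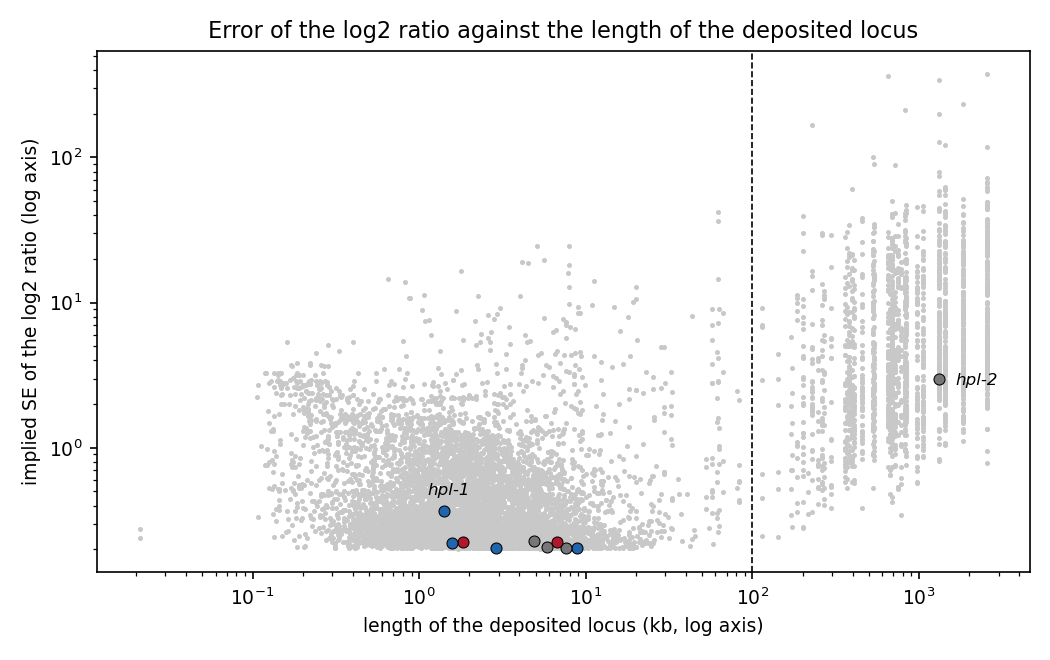
Implied standard error of the log2 ratio against the length of the deposited locus (kb), both on log axes, for tested genes above 0 in both groups (grey) and the 10 repressor genes (blue fell, red rose, dark grey did not pass); the dashed line marks 100 kb. hpl-2, at 2.97, lies among the long loci with large errors, while the other 9 lie at 0.36 or less.

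On the authors' scale lin-13 and lin-61 changed in opposite directions. With both groups scaled to the same total FPKM, the lin-61 log2 ratio was -0.033 and did not pass the test. lin-13 encodes a large zinc-finger protein that recruits HPL-2 to chromatin (chromosome III, 7700560 to 7709407). Its level was 62.6 FPKM under control and 34.3 FPKM under sig-7 RNAi, a log2 ratio of -0.87 (implied SE 0.20), with q = 2.11e-04 in the authors' deposited table. lin-61 encodes a protein of MBT repeats that binds methylated lysine 9 of histone H3 (chromosome I, 7248974 to 7250814). Its level went from 32.9 to 54.3 FPKM, a log2 ratio of 0.72 (implied SE 0.23), with q = 0.00763 in the authors' deposited table. In the control the lin-61 level was 0.53 times that of lin-13, and in sig-7 RNAi it was 1.58 times that level. The difference between their log2 ratios was 1.59 (SE 0.31 if independent).

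**Figure D3:**
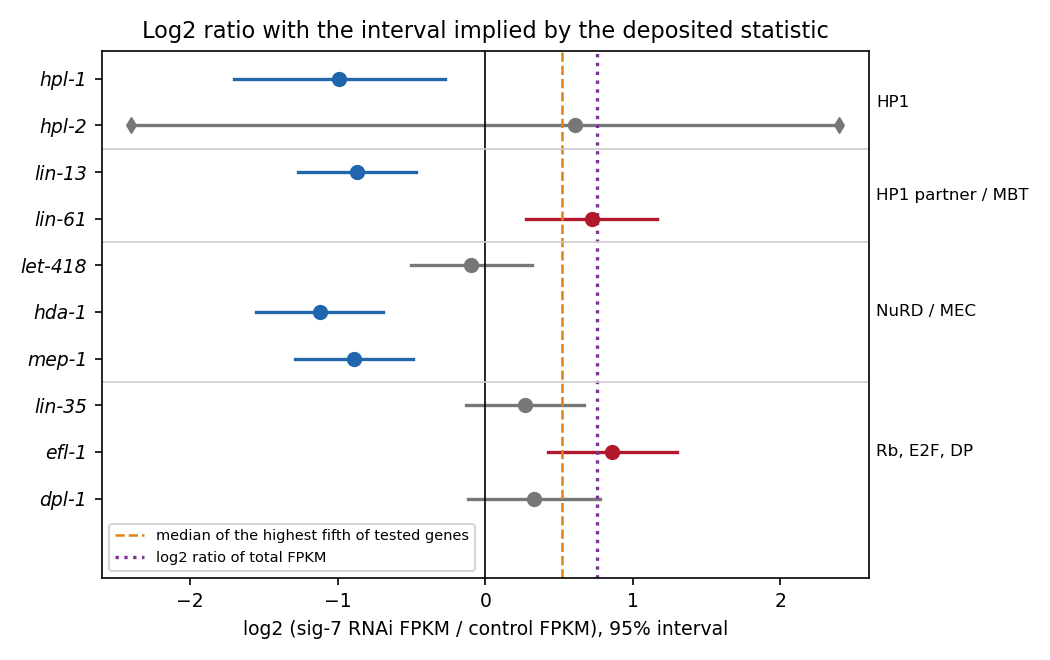
Log2 of the FPKM under sig-7 RNAi over that under control for the 10 genes, with 95% intervals implied by the deposited statistic (blue fell, red rose, grey did not pass); diamonds mark where the hpl-2 interval leaves the axis, the dashed line is the median of the 20% of tested genes with the highest mean FPKM (0.52) and the dotted line the log2 ratio of total FPKM (0.75). The 4 genes that fell have intervals below 0, and the intervals of efl-1 and lin-61 lie above 0 but hold both lines.

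In the retinoblastoma group, the E2F gene rose on the authors' scale, while the Rb and DP genes did not pass the test. efl-1 encodes an E2F factor of the repressor type (chromosome V, 16958928 to 16965649). It was at 56.6 FPKM under control and 102.7 FPKM under sig-7 RNAi. That is 1.82-fold more, a log2 ratio of 0.86 (implied SE 0.22), with q = 8.66e-04 in the authors' deposited table. lin-35, the only Rb-family gene of C. elegans (chromosome I, 5807733 to 5815332), was at 70.9 and 85.4 FPKM, with q = 0.378 in the authors' deposited table and a 95% interval of the log2 ratio from -0.13 to 0.67. dpl-1, which encodes the DP partner of E2F (chromosome II, 9167981 to 9172888), was at 46.4 and 58.4 FPKM, with q = 0.313 in the same table and an interval from -0.12 to 0.78. A rise as large as that of efl-1 lies outside both intervals. The deposited locus of dpl-1 spans 4908 bp, against an annotated gene of 2656 bp, and is shared with T23G7.2 (10.1 and 14.3 FPKM). That of lin-35 is shared with C32F10.4 (1.24 and 0.52 FPKM). The log2 ratios of lin-35 and dpl-1 turned below 0 with both groups scaled to the same total FPKM, to -0.49 and -0.42. On that scale lin-35 was called as a fall, and efl-1, at 0.11, did not pass the test. efl-1 stood at 1.22 times the dpl-1 level in the control and 1.76 times in sig-7 RNAi, and their log2 ratios differed by 0.53 (SE 0.32 if independent), which is under 2 standard errors.

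The 5 other DREAM and MuvB subunit genes had a median log2 ratio of 0.53, and of them 0 fell, 2 rose and 3 did not pass. The 2 that rose, lin-53 and lin-52, lie among the 20% of tested genes with the highest mean FPKM. At that level 6.87% fell and 34.4% rose, with a median log2 ratio of 0.52. Over all tested genes 17.3% fell and 11.2% rose. With both groups scaled to the same total FPKM, 2 of the 5 fell and 0 rose. lin-53, which encodes the RbAp46/48-type protein that DREAM and NuRD share, rose from 239.5 to 389.3 FPKM, a log2 ratio of 0.70 (implied SE 0.20), with q = 0.00341 in the authors' deposited table. It stood at 2.74 times the hda-1 level in the control and 9.70 times in sig-7 RNAi. The MuvB gene lin-52 was at 60.5 and 95.8 FPKM, with q = 0.0490 in the authors' deposited table. On the authors' scale the E2F family went both ways. efl-3, which encodes an atypical E2F, was 4.19-fold lower, from 36.6 to 8.75 FPKM (q listed as 0 in the authors' deposited table), whereas efl-2 went from 7.77 to 13.8 FPKM (q = 0.0324 in the same table). The log2 ratio of efl-1 exceeded that of efl-3 by 2.93 (SE 0.33 if independent).

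The order of the 10 genes by level changed accordingly. In the control it ran from let-418 (133.6 FPKM) through mep-1, hda-1, hpl-2, lin-35, lin-13, efl-1 and dpl-1 to lin-61 (32.9 FPKM) and hpl-1. In sig-7 RNAi hpl-2 (130.9 FPKM) and let-418 came first, followed by efl-1, lin-35, dpl-1 and lin-61, with mep-1, hda-1, lin-13 and hpl-1 at the end. hda-1 moved from rank 3 to rank 8 and efl-1 from rank 7 to rank 3. The spread of a level between libraries is unknown, so neighbours in either order cannot be told apart from each other.

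**Figure D4:**
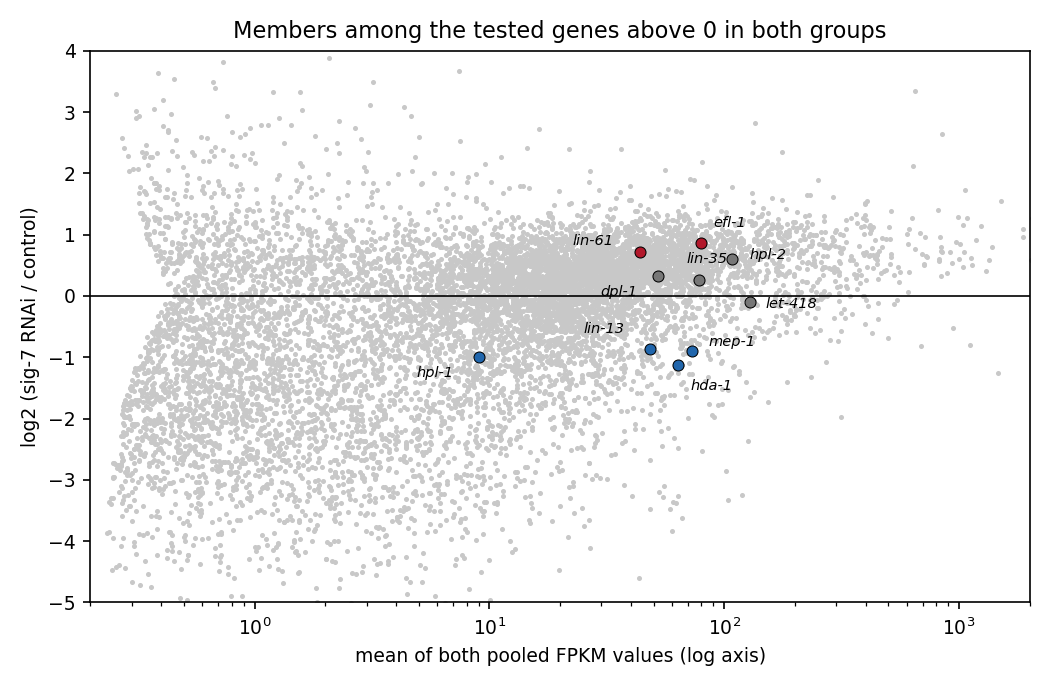
Log2 of the FPKM under sig-7 RNAi over that under control against the mean of both pooled FPKM values (log axis) for 10024 tested genes (grey; 74 more lie outside the axes) and the 10 repressor genes (blue fell, red rose, dark grey did not pass). hda-1, mep-1 and lin-13 lie below most genes of like level, and efl-1 and lin-61 lie within it.

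Genes that act beside the 10 were taken from 12 lists, with 71 genes in all, of which 68 were tested. Of these, 17 fell (25%) and 13 rose (19.1%). Both shares lie above those over all genes, and no test of the lists was made. Among the 20% of tested genes with the highest mean FPKM, 6.87% fell and 34.4% rose. Without the 9 tested genes in loci over 100 kb, 16 of 59 fell and 13 rose. With both groups scaled to the same total FPKM, 33 of these genes fell and 0 rose, and 0 rose at an unadjusted p under 0.05 either. On that scale the medians of the DREAM and MuvB list (0.53), the NuRD list (0.12), the suppressor list (0.54), the H3K9 list (0.43) and the synMuv A list (0.076) turned below 0, to -0.21, -0.61, -0.21, -0.30 and -0.63 in that order, and the SUMO median went from 0.84 to 0.095.

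Other synMuv B genes included the largest falls among the repressors outside the E2F family. Of 6 tested, 2 fell and 1 rose, where 17.3% of all tested genes fell and 11.2% rose. With both groups scaled to the same total FPKM, 3 of the 6 fell and 0 rose. tam-1, which encodes a RING and B-box protein that counters transgene silencing, was 2.64-fold lower, from 96.5 to 36.5 FPKM (q = 2.38e-10 in the authors' deposited table). lin-36, which encodes a THAP-domain protein, went from 45.9 to 20.1 FPKM (q = 6.91e-07 in the same table). lin-65, a partner of the H3K9 methyltransferase MET-2, went from 30.4 to 49.8 FPKM (q = 0.00790 in the authors' deposited table). met-2 itself was at 30.7 and 37.03 FPKM (q = 0.378), and lin-15B, which encodes another THAP-domain protein, was at 44.1 and 31.4 FPKM (q = 0.0558), both in the authors' deposited table and neither past the threshold.

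Genes of H3K9 methylation and of chromodomain readers had 4 rises and 0 falls among 8 tested, where 11.2% of all tested genes rose and 17.3% fell. With both groups scaled to the same total FPKM, 0 of the 8 rose and 1 fell. lin-65 and cec-3 lie among the 20% of tested genes with the highest mean FPKM, where 34.4% rose. Besides lin-65, the rises were in cec-6 (15.8 and 28.6 FPKM, q = 0.00128 in the authors' deposited table), set-32 (6.67 and 11.6 FPKM, q = 0.0199) and cec-3 (61.8 and 91.0 FPKM, q = 0.0434). cec-3 and cec-6 encode chromodomain proteins and set-32 a histone methyltransferase. Of the 8 tested, set-25 lies in a locus of 822980 bp and has an implied SE of 1.75, too wide for a call. In the SUMO pathway, whose conjugation enzymes are linked to synMuv repression, 2 of 4 tested genes rose and 0 fell, against the same shares. The rises were in ubc-9, the SUMO conjugating enzyme (146.1 and 274.0 FPKM), and aos-1, a subunit of the activating enzyme (54.5 and 94.5 FPKM), with q = 4.14e-04 and q = 0.00250 in the authors' deposited table. With the same total FPKM, 0 of the 4 rose and 1 fell. ubc-9 and aos-1 also lie among the 20% of tested genes with the highest mean FPKM, where 34.4% rose. smo-1, which encodes SUMO, was at 560.5 and 1092 FPKM, but its locus of 713076 bp is shared by 96 rows, with q = 0.506 in the authors' deposited table.

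The other chromatin groups of the synMuv network held calls in both directions on the authors' scale. Of 4 tested genes of the Tip60 acetyltransferase complex (synMuv C), 2 fell and 0 rose, where 17.3% of all tested genes fell and 11.2% rose. With both groups scaled to the same total FPKM, 3 of the 4 fell and 0 rose. trr-1, the TRRAP gene, was 1.96-fold lower, from 61.8 to 31.4 FPKM (q = 6.02e-05 in the authors' deposited table), and epc-1, the Enhancer of Polycomb homologue, went from 74.3 to 51.6 FPKM (q = 0.0450). Of 5 genes known as synMuv suppressors, 2 rose and 1 fell, against the same shares over all tested genes. With the same total FPKM, 0 of the 5 rose and 1 fell. The genes that rose, mes-4 and isw-1, lie among the 20% of tested genes with the highest mean FPKM, where 34.4% rose. mes-4, which encodes an H3K36 methyltransferase, went from 40.9 to 62.8 FPKM (q = 0.0141 in the authors' deposited table), and isw-1, the ISWI ATPase gene, from 87.4 to 127.1 FPKM (q = 0.0321). zfp-1, the AF10 homologue, went from 1.48 to 0.185 FPKM (q = 0.0327), over a deposited locus that covers 9.89% of its annotated span. mrg-1, another of the 5, lies in a locus of 822980 bp. Its implied SE of 1.23 is too wide for a call at its log2 ratio of 0.75. Of 3 tested synMuv A genes, 0 were called in the authors' deposited table, and 0 had an unadjusted p under 0.05 there. One of them, lin-8, lies in a locus of 1835832 bp and has an implied SE of 2.61, too wide for a call, and without it the synMuv A median of 0.076 became -0.12. With both groups scaled to the same total FPKM, 2 of the 3 synMuv A genes fell and 0 rose.

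Genes of vulval signalling and of the cell cycle were also listed. Of 11 tested genes of the EGF and Ras pathway, 4 fell and 0 rose, where 17.3% of all tested genes fell and 11.2% rose. One of the other 7, lin-1, has a locus of 2570233 bp and an implied SE of 18.0, too wide for a call. With both groups scaled to the same total FPKM, 9 of the 11 fell and 0 rose. lin-3, the EGF gene repressed by synMuv genes in the larval epidermis, was at 7.10 and 8.43 FPKM (q = 0.649 in the authors' deposited table). Its deposited locus covers 40.9% of its annotated span. let-60, the Ras gene, was 2.09-fold lower, from 29.7 to 14.2 FPKM (q = 0.00324), and sos-1, its exchange factor, went from 10.98 to 5.63 FPKM (q = 4.98e-04), both in the authors' deposited table. let-23, the EGF receptor gene, went from 1.00 to 0.145 FPKM in a row it shares with a 21U RNA (q = 2.54e-05 in the same table), and the Hox gene lin-39 from 5.22 to 2.34 FPKM (q = 0.0231). Of 9 genes of the G1 cyclins and of regulators that work with LIN-35, 4 fell and 0 rose against the same shares, and 2 of the 9 lie in loci over 100 kb. With the same total FPKM, 6 of the 9 fell and 0 rose. fzr-1, the Cdh1 homologue that restrains division together with lin-35, was 2.55-fold lower, from 32.2 to 12.6 FPKM (q = 1.98e-07 in the authors' deposited table). lin-23, an F-box gene, went from 25.8 to 13.5 FPKM (q = 7.01e-04), the cyclin D gene cyd-1 from 28.1 to 17.2 FPKM (q = 0.0252, over a locus that covers 34.6% of its annotated span) and the phosphatase gene cdc-14 from 81.3 to 54.1 FPKM (q = 0.0197).

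The 6 P granule genes, germline genes of the kind that synMuv B mutants express in somatic cells, had log2 ratios of 0.32 to 0.63, all above 0. The highest is that of glh-1, with an implied SE of 2.36 over a locus of 381925 bp, and the other 5 lay at 0.32 to 0.48. Of the 6, 0 were called by Cuffdiff in the authors' deposited table, where 1 had an unadjusted p under 0.05. Their median of 0.36 became -0.32 once both groups had the same total FPKM. Early embryos hold such RNAs from the mother, and their part in these values was not tested.

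**Figure D5:**
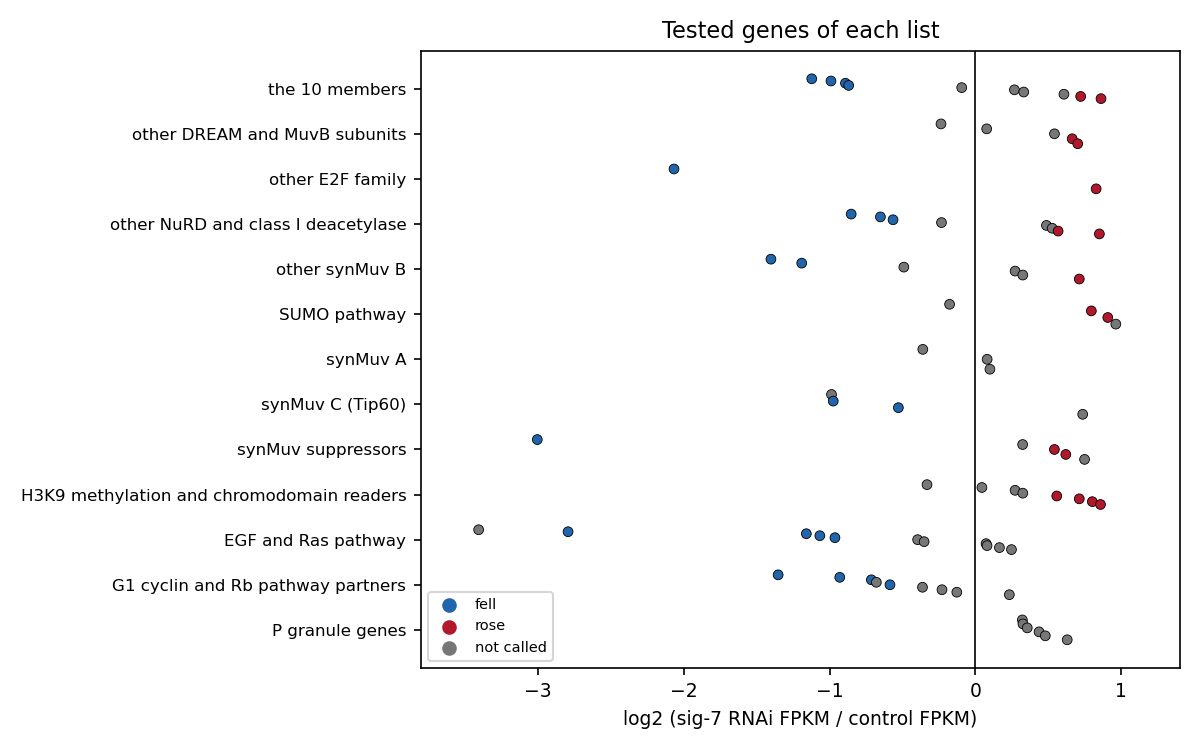
Log2 of the FPKM under sig-7 RNAi over that under control for the tested genes of each list (points spread vertically for sight only; blue fell, red rose, grey did not pass). The P granule genes all lie above 0, at 0.32 to 0.63, and none passed the test, while the 10 repressor genes, with 4 falls and 2 rises, hold calls on both sides.

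The 10 genes lie on 6 chromosomes, and calls among their tested neighbours were counted. All 10 are annotated as protein coding. For the 9 genes with a short locus, the nearest tested row on each side with a single gene name and a locus of at most 50 kb was taken. Of these 18 neighbours, 5 were called (2 fell and 3 rose). Of all tested genes 28.4% were called, and of those without a locus over 100 kb 35.3%. Of the 12 neighbours of genes that fell or rose, 1 was called in the same direction and 1 in the opposite one. The first is nhr-32 beside hpl-1, at 6.61 and 3.33 FPKM. The second is ril-1, which lies 1296 bp before hda-1 and rose from 153.3 to 308.3 FPKM (q = 9.93e-05 in the authors' deposited table). let-418 lies 7137 bp from F26F12.3, which went from 23.1 to 1.44 FPKM.

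The deposited isoform and TSS group tables add no split for these genes. Each of the 10 has 1 isoform row and 1 TSS group row with the same FPKM values as in the gene table, although the WBcel235 annotation lists 3 transcripts of hpl-2 and 2 each of lin-61 and dpl-1. The calls were the same in all 3 tables, with the hpl-1 q at 0.0280 among isoforms and 0.0274 among TSS groups.

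The rises depended on how the groups are set on 1 scale. The scalings tried below lowered every log2 ratio by 0.47 to 0.75 or left it nearly unchanged. They could thus weaken a rise but hardly a fall, and no scaling that clearly raised the ratios was tried. The sum of FPKM over all rows was 1.69 times as high under sig-7 RNAi, a log2 ratio of 0.75. With both groups scaled to the same total, hda-1, mep-1, lin-13 and hpl-1 were called as falls again, and so were let-418 (-0.85) and lin-35 (-0.49). Of the 10098 tested genes above 0 in both groups, 37.2% fell and 0.673% rose under this scaling. On that scale efl-1 went to a log2 ratio of 0.11 and lin-61 to -0.033, and neither passed the test. With the 10 highest rows left out of the total, the 4 falls and let-418 were called and 0 of the 10 genes rose. Of those 10098 genes, 27.9% fell and 2.1% rose. With the median of the 20% of genes at the highest level set to 0, the same 5 genes fell and 0 rose, against 29.4% and 1.76%. With the median of all tested genes set to 0, 4 fell and 2 rose, as on the authors' scale (18.1% and 12.2% of the 10098 genes). At a stricter q of 0.01 in the authors' deposited table hpl-1 was no longer called, which left 3 falls and 2 rises, where 13.1% and 6.72% of all tested genes were called.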

How the data were processed

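RNA was sequenced in 4 libraries, grouped by sample title. Stranded libraries were made from 1 µg of total RNA after removal of ribosomal RNA by a kit meant for mammals, per the labels' protocols. Per the submitters' processing notes, the build was ce10 and the tools included TopHat2, Cufflinks 2.1.1 and Cuffdiff 2.0.2. The sources used here do not give the parameters, the annotation or whether strand was used in counting, and reads of overlapping genes cannot be told apart. The authors deposited FPKM as 1 pooled value per group for 37812 genes, 44542 isoforms and 38916 TSS groups, and per the file headers each row has a q-value, a p-value, a log2 ratio and a test statistic (a score). The 605 tested genes listed at 0 in 1 group enter the counts on the authors' scale and the medians with a pseudocount. They have no finite log2 ratio and are left out of the shares under other scalings, which rest on 10098 rows. Depth is unknown, so no detection floor is given.

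The deposited p equalled a 2-sided normal p of the statistic to within 2.69e-06, and the q a Benjamini-Hochberg adjustment over 10703 rows to within 1.55e-06. The implied standard error is |log2 ratio / statistic|, and 95% intervals use 1.96 of it. For other scalings the log2 ratios were shifted, tested against the same errors and adjusted over 10098 rows, with steps tested on simulated data. Starts count from base 1, as 3801 of 4353 loci of a lone 21U RNA had a length of 21 when read as starting at base 0. Spans and transcripts came from WBcel235, with no coordinate of it printed. Named were all 10 genes, up to 4 called genes per list by size of ratio, and lin-53, chd-3, met-2 and lin-15B. Named after their values were seen were egl-27, lin-3, smo-1, glh-1, lin-8, lin-1, set-25 and mrg-1. So were the markers of long or partly covered loci, the rows that share a locus and the neighbours. With 2 pooled values, likeness of pattern to other genes was not computed. The genes, lists and tests were chosen with earlier results of these data known. Tools were python 3.11.15, pandas 2.3.3 and scipy 1.17.1.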

Additional observations from a re-analysis of the deposited data

How the results depend on the processing

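Of the 10 genes, 4 fell and 2 rose in the authors' deposited table, and the same counts came from the isoform table, the TSS group table, a floor of 1 FPKM, the inclusion of rows with several names and a median log2 ratio of all tested genes set to 0. The isoform and TSS group tables hold 1 row per gene with the same FPKM values, so they add no independent support. All 10 genes lie above the floor and none has a row with several names, so those settings could not change the counts. At q < 0.01 the counts were 3 and 2. With the groups scaled to the same total FPKM, 6 fell and 0 rose. Of the 10098 tested genes above 0 in both groups, 37.2% fell and 0.673% rose under that scaling. With 2 scalings chosen after seeing the data, the same total without the 10 highest rows and the median of the 20% most highly expressed genes set to 0, 5 fell and 0 rose in each. At an unadjusted p under 0.05, 0 rose as well under these 3 scalings. The median log2 ratio of the 10 genes, 0.085, became -0.66, -0.38 and -0.43 in that order, and lin-61 reversed to -0.033 with the same total. Of genes not called, dpl-1 went from 0.33 to -0.42, -0.14 and -0.19, lin-35 from 0.27 to -0.49, -0.20 and -0.26, and hpl-2 from 0.61 to -0.15, 0.13 and 0.083. Under the 2 added scalings efl-1 was at 0.39 and 0.34 and lin-61 at 0.25 and 0.20, neither past the test, and let-418 at -0.57 and -0.62, past it. For the related genes, 17 falls and 13 rises became 11 and 6 at q < 0.01, and 33 and 0 with the same total. Over all genes 1195 rises became 719 at q < 0.01. With genes in loci over 100 kb left out, also chosen after seeing the data, 4 and 2 of the 10 genes were called, and their median turned from 0.085 to -0.093 as hpl-2 dropped out. These shifts follow from the construction of the alternatives. No paired analysis was possible because the deposited values are pooled over the libraries of each group, and for the same reason no replicate could be left out.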
